A study of Homo sapiens with 6 samples.

Results

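In over-confluent U2OS cells, 1912 H3K4me3 promoters shared by the ProMMP2-3xHA and wild type (WT) cells had no HA peak nearby. They were chosen by measured values: H3K4me3 regions of the ProMMP2-3xHA cells, at least 1000 and under 3500 bp wide, that overlapped a WT H3K4me3 region and lay within 1 kb of the transcription start site (TSS) of a protein coding gene, with neither a merged HA region nor a peak of any of the 3 HA replicates within 1 kb. They were drawn from 6569 shared promoters of this width and made up 29.1% of them (95% exact interval 28.0 to 30.2), against 58.2% of all 19068 H3K4me3 regions on the chromosomes, of which these 6569 are a part. Another 2234 (34%) had a peak of every replicate within 1 kb and served as the comparison, and 2423 (36.9%) had HA in only part of the lists. The absence of HA is therefore a condition of the selection and not a result.

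U2OS is an established human osteosarcoma cell line. The tagged cells (ProMMP2-3xHA) are U2OS with a stable transgene that constitutively makes the pro-form of MMP-2 with 3 HA epitopes at its C-terminus and that also keeps its own untagged MMP-2, and the WT cells carry no tag. Both were grown 2 days past confluence, and their chromatin was cut with micrococcal nuclease and immunoprecipitated without crosslinking (nChIP-Seq). HA was measured in 3 replicates of the ProMMP2-3xHA cells and H3K4me3 in 1 library of each line, and the HA library of the WT cells was not used here. The tagged cells are 1 line, and whether it is a clone is not given in the sources used here. By the study's account the HA experiments were independent biological repeats, but all of them used this line. H3K4me3 marked 5 of 8 osteoblast and mesenchymal marker genes in the ProMMP2-3xHA cells, none of 5 haematopoietic and none of 2 hepatocyte genes, but 3 of 4 epithelial genes and SYT1 among 3 neuronal genes. The mesenchymal genes COL1A2, TWIST1 and CDH11 had no H3K4me3 in either line.

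Trimethylation of lysine 4 on histone H3 is laid down around the TSSs of active or poised genes and is strongest on the first nucleosomes downstream. It is found at most CpG islands, stretches of DNA that keep a high frequency of CG dinucleotides. MMP-2 is a matrix metalloproteinase best known for degrading extracellular matrix. In the nucleus it can remove the N-terminal tail of histone H3, which holds lysine 4. The question was how H3K4me3 promoters at which the tagged protease was not detected differ from those of the same width at which every replicate found it.

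The sequences of 5 promoters without HA are shown beside those of 2 with HA to display the range of base composition within the first group. CCDC85C, ARHGAP5 and NECTIN3 are its 3 widest regions, ANXA1 and BLOC1S4 have the lowest and the highest CpG ratio, and APOLD1 and CITED2 are the widest regions with HA in every replicate. Each run holds the 200 bases before the TSS and the 30 bases from it, 5′ to 3′ along the gene in GRCh37, with CG dinucleotides in capitals.
CCDC85C (chr14:100070515-100070744, minus strand): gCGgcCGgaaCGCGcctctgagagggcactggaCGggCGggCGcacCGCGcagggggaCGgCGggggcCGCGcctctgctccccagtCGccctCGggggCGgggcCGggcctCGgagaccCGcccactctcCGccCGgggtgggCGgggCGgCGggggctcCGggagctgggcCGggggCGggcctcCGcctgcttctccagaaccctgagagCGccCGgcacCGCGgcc
ARHGAP5 (chr14:32545120-32545349, plus strand): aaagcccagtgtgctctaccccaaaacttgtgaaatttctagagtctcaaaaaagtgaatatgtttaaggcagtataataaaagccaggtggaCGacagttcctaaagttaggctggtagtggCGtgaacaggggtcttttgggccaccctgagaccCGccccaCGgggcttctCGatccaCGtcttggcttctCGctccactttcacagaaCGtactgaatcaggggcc
NECTIN3 (chr3:110788718-110788947, plus strand): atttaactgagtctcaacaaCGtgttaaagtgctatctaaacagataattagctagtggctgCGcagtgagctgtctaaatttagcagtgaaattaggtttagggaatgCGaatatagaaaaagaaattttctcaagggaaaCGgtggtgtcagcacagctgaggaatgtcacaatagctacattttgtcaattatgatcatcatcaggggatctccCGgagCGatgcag
ANXA1 (chr9:75766581-75766810, plus strand): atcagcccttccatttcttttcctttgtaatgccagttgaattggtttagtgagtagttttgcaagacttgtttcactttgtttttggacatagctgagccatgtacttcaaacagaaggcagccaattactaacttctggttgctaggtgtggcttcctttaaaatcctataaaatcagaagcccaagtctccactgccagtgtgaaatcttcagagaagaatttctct
BLOC1S4 (chr4:6717701-6717930, plus strand): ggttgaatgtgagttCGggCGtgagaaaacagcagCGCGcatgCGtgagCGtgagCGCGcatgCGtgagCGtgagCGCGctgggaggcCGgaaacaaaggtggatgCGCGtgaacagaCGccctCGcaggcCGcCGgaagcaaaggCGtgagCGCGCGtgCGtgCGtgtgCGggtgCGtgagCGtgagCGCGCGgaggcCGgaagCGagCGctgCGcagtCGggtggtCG
APOLD1 (chr12:12878651-12878880, plus strand): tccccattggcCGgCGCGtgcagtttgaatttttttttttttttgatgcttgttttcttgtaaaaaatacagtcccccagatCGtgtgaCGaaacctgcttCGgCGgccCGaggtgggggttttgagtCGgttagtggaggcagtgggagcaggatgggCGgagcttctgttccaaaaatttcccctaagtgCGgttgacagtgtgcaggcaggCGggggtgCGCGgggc
CITED2 (chr6:139695756-139695985, minus strand): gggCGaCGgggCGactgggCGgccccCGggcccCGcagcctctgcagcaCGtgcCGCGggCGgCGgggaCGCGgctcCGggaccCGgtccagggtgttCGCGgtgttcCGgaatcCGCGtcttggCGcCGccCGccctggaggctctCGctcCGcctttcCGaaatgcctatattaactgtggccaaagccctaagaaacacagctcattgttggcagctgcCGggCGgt

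CCDC85C held 32 CG dinucleotides in these 230 bases, ARHGAP5 held 8, NECTIN3 held 6, ANXA1 held 0 and BLOC1S4 held 37. APOLD1 held 14 and CITED2 held 28, both between the counts of ANXA1 and BLOC1S4. Those promoters were chosen for the lowest and highest CpG ratio of all promoters without HA. Almost any promoter would fall between them, so these counts cannot show whether base composition differed with HA. The window of ANXA1, the gene of a phospholipid-binding annexin, was also the only one of the 7 with a TATAAA match.

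The 10 widest promoters without HA belonged to genes of varied function. CCDC85C, which encodes a coiled-coil protein of cell junctions, had a region of 3472 bp in the ProMMP2-3xHA cells and 4306 bp in the WT cells, and its nearest HA interval lay 632722 bp away. ARHGAP5 had 3471 and 3758 bp in the 2 lines and HA at 124042 bp. NECTIN3, a cell adhesion molecule, had 3441 and 3589 bp and HA at 138888 bp. OSMR, the receptor subunit for oncostatin M, had 3432 and 3823 bp and HA at 226462 bp. All 4 were thus wider in the WT cells and lay over 100 kb from any HA interval.

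The others were GPBP1 (3418 bp), DR1 (3408 bp), a general repressor of transcription, NME7 with BLZF1 (3369 bp), SAP30 (3355 bp), a subunit of the Sin3 histone deacetylase complex, UPK2 with BCL9L (3328 bp) and TCF7L2 (3311 bp), a DNA-binding effector of Wnt signalling. NME7 was the nearest of the 10 to HA, with a peak of replicate 3 at 2465 bp, and it and SAP30 were the only 2 that were narrower in the WT cells, at 3138 and 3225 bp. The 5 widest comparison regions were APOLD1, CITED2, ERH with SLC39A9, HSPA5 and PHF21A, each at least 3482 bp wide. Their summits reached 4.49 to 10.0-fold over background across the 3 replicates, and PHF21A, a subunit of a histone demethylase complex, stood at 6.85, 10.0 and 5.99-fold.

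The nearest HA interval lay at a median of 79420 bp from a promoter without HA (quartiles 28316 and 208205 bp), and 1735 of them (90.7%) had none within 10 kb. Close to the limit of the selection, 15 promoters had HA between 1 and 2 kb away. The nearest of these were ADGRB2 at 1008 bp and TSPAN31 at 1021 bp, followed by KLF13 at 1134 bp, RFNG with GPS1 at 1279 bp and PIP5K1A at 1354 bp. All these distances run from the edge of the H3K4me3 region. At ADGRB2, KLF13 and PIP5K1A the TSS lay outside the region, so HA may lie closer to the TSS than stated. The same limit holds for other promoters whose TSS lay outside their region. Just inside the limit, and so left out, were UBALD1 at 846 bp, KCTD9 at 764 bp, BAZ2A at 607 bp, MTSS2 at 538 bp and DDX39A at 533 bp. Another 1827 shared promoters without HA were narrower than 1000 bp and 29 were 3500 bp or wider, the nearest to the limits being 999 and 3505 bp wide.

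Promoters without HA were most frequent among narrow H3K4me3 regions. Their share was 38.0% from 1000 bp, 27.8% from 1500 bp, 19.6% from 2000 bp, 17.9% from 2500 bp and 12.7% (95% exact interval 8.69 to 17.8) from 3000 to under 3500 bp, in steps of 500 bp. The share with HA in every replicate took the opposite course, from 25.4% to 57.9%. Where a comparison is given at equal width, and in the differences by replicate in base composition, H3K4me3 and genes, values were weighted to the widths of the promoters without HA in these 5 steps. The other counts and shares are unweighted.

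**Figure D1:**
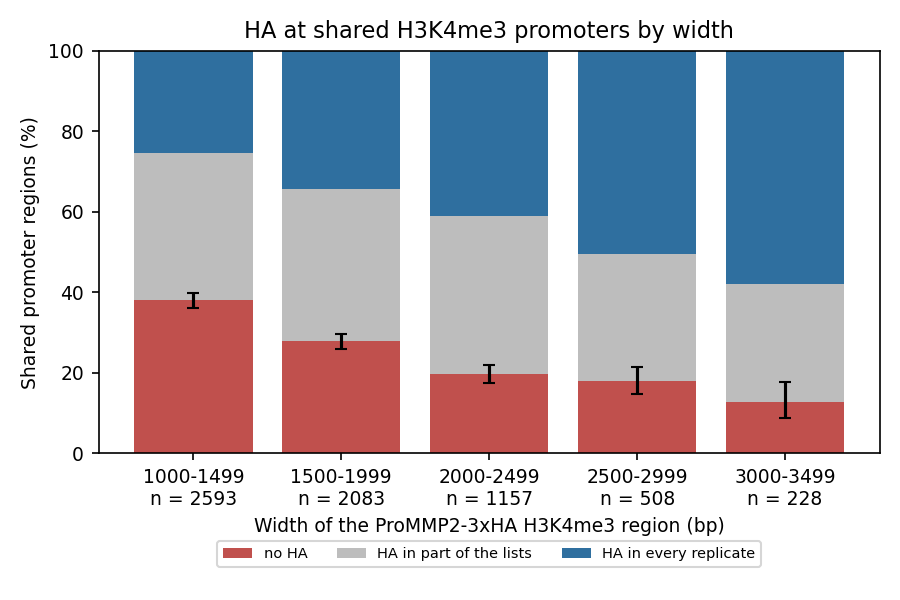
Shares of the 6569 shared promoters without HA (red), with HA in part of the lists (grey) and with HA in every replicate (blue), by the width of the ProMMP2-3xHA H3K4me3 region in bp, with the number of regions under each bar. Error bars are 95% exact intervals of the share without HA, which is 38.0% in the narrowest step and 12.7% in the widest.

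Whether a promoter without HA in some replicates also lacked it in a replicate that had no part in the choice was examined by leaving each replicate out in turn. Of 2031 regions without a peak in replicates 2 and 3, 87 (4.28%, 95% exact interval 3.44 to 5.26) had one in replicate 1, against 41.8% of all shared promoters. Of 2420 regions without a peak in replicates 1 and 3, 476 (19.7%) had one in replicate 2, against 56.9%. Of 2530 regions without a peak in replicates 1 and 2, 586 (23.2%) had one in replicate 3, against 58.6%. The left-out replicate thus found HA less often in all 3 cases, by 36.7 ± 1.16 percentage points (SD, n = 3). The exact two-sided sign permutation test gave p = 0.25, the smallest value that 3 replicates allow, and 0.35 after Benjamini-Hochberg adjustment over the 7 results tested in this way. Each difference used all 3 replicates, and all shared promoters include the regions chosen. The 3 differences are therefore not independent, and their SD and p describe only how far the peak lists of this line agree.

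Absence nevertheless depended on the list consulted. The merged HA list alone left 2798 promoters without HA, and the replicate lists alone left 1944, of which 32 lay near a merged region. With the highest peak of each shared promoter taken, the lowest fold enrichment was 2.43, 2.31 and 2.20 in replicates 1, 2 and 3. Peaks were called by q-value and not by fold, so these values are not a fixed limit. HA that did not reach the q-value would not appear as a peak. Where HA was found in only some replicates it was also weaker: the median summit in replicate 2 was 4.22-fold at promoters with a peak in 1 replicate, 4.78-fold with peaks in 2 and 6.57-fold with peaks in all 3. Promoters without HA are thus promoters with no HA peak detected at this depth.

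The base composition at the TSS hardly differed between promoters without HA and those with it. In the 500 bp around the TSS the median GC content at equal width was 66.6% without HA and 66.4% with HA in every replicate, and the ratio of observed to expected CG dinucleotides was 0.843 and 0.848. Replicate by replicate, promoters without a peak differed from those with a peak by 0, -0.20 and 0.40 percentage points of GC, a mean of 0.067 ± 0.306 (SD, n = 3, exact sign permutation p = 1). The CpG ratio differed by -0.0051 ± 0.0042 (SD, n = 3, exact sign permutation p = 0.25, adjusted 0.35), and this difference changed sign when the ratio was taken over 1000 bp or the whole region. Here and in the later differences by replicate, each promoter kept the same value and only the HA calls changed. The SD and p therefore describe agreement of the HA peak lists, not repeated measures of the promoters. Over the whole H3K4me3 region the median GC content at equal width was 61.8% without HA and 59.9% with HA.

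Individual promoters without HA spanned most of the range of CpG ratios. The highest were BLOC1S4 at 1.25, SSU72, FTSJ1, KDM7A, a histone demethylase, and MTO1 at 1.20. The lowest were ANXA1, with no CG dinucleotide, CPA4 at 0.042, SRBD1, IL31RA and MBNL2 at 0.12. At SRBD1 and MBNL2 the 500 bp around the TSS lay wholly outside the H3K4me3 region, so their ratios describe DNA beside it. A ratio under 0.5 was found at 7.06% of promoters without HA and, at equal width, 5.58% of those with HA. RUNX2, the master factor of osteoblast identity, was among these CpG-poor promoters with a ratio of 0.13, a region of 2000 bp and HA no nearer than 123602 bp. SPARC, the gene of the bone matrix glycoprotein osteonectin, had a ratio of 0.43, a region of 2718 bp and HA at 6303 bp. Of the 5 osteoblast and mesenchymal markers with H3K4me3, RUNX2 and SPARC lacked HA, while COL1A1, VIM and FN1 had it in every replicate.

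Short promoter motifs were counted on both strands of the 250 bases before to 50 bases after the TSS. GGGCGG, the core of the Sp1 site, was found at 70.4% of promoters without HA, 69.7% of those with HA in every replicate and 52.1% of all protein coding promoters. CCAAT was found at 35.1%, 38.7% and 35.8%, and TATAAA at 5.23%, 6.18% and 10.9%. CCGGAAG, a match of ETS factors, was found at 16.7% (95% exact interval 15.0 to 18.4), 20.01% (18.4 to 21.7) and 11.8%. GCATGCGC, the core of the NRF1 site, was found at 3.82% (3.00 to 4.78), 5.82% (4.88 to 6.87) and 3.76%. In this window it was the only one of 9 motifs whose intervals did not overlap between the promoters without HA and those with HA.

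The remaining 4 motifs lay closer together. ATGGCGG, of the YY1 site, was found at 8.84% without HA and 9.27% with HA, TGACGTCA, of the CREB site, at 3.50% and 3.72%, CACGTG, the E-box, at 9.31% and 11.1%, and TGAGTCA, of the AP-1 site, at 2.04% and 2.64%. BLOC1S4 carried both CCGGAAG and GCATGCGC in the sequence shown above. A match of letters is not evidence that a factor binds, and these shares were not tested.

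H3K4me3 at promoters without HA differed little in width between the 2 lines from that at promoters with HA. The WT region was wider at 1730 of the 1912 promoters without HA (90.5%) and at 93.3% of the promoters with HA in every replicate. Each ProMMP2-3xHA region was set against the full width of every WT region it overlapped. A promoter split into several ProMMP2-3xHA regions can therefore count as wider in the WT cells. Only the ProMMP2-3xHA width was limited to under 3500 bp. The median log2 ratio of WT to ProMMP2-3xHA width was 0.30 (quartiles 0.15 and 0.49) without HA and 0.31 with HA at equal width. The 3 replicates gave differences of -0.0054, -0.017 and -0.0035 on this log2 scale (mean -0.0088 ± 0.0076, SD, n = 3, exact sign permutation p = 0.25, adjusted 0.35). Without weighting by width the difference turned to 0.018. H3K4me3 of each line was 1 library of unknown depth, so the wider WT regions describe these libraries and this one-sided measure. The replicates are those of HA, so the SD and p do not measure the spread of H3K4me3 width.

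Single promoters without HA departed far from this median. ALOXE3, an epidermal lipoxygenase gene, had 1410 bp in the ProMMP2-3xHA cells and 6494 bp in the WT cells, a log2 ratio of 2.20. ZSWIM6 had 2 regions, of 1188 and 1259 bp, inside a single WT region of 4922 bp, and both were counted, each against the full 4922 bp. KLF13 had 1047 and 3900 bp (1.897) and YOD1 1154 and 3735 bp (1.69). In the opposite direction, C1R, a protease of the classical complement pathway, had 1393 bp in the ProMMP2-3xHA cells and 170 bp in the WT cells (-3.03). IGFL4 (-1.55), PRDM16 (-1.24), ABLIM3 (-1.18) and TLR1 with TLR6 (-1.11) were also narrower in the WT cells.

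The extent of H3K4me3 on either side of the TSS was compared next. At equal width the mark reached a median of 380 bp upstream and 1143 bp downstream of the TSS without HA, and 451 bp upstream and 1103 bp downstream with HA in every replicate. The TSS lay inside the region at 78.4% of promoters without HA and, at equal width, 83.3% of those with HA. The downstream extent was longer at promoters without a peak by 11, 15 and 42 bp in the 3 replicates (mean 22.7 ± 16.9, SD, n = 3, exact sign permutation p = 0.25, adjusted 0.35). The mean was 13 bp without replicate 3, 9.67 bp at widths under 2000 bp and 16.7 bp at a local control background of 1.1 to 1.5 times its commonest value (the last with exact sign permutation p = 0.75), and without weighting by width it was -80.3 bp. The upstream extent was shorter by 32, 38 and 50 bp, a description that was not tested. At a given width a longer downstream extent leaves a shorter upstream one, so they are not separate observations.

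Among regions of 1500 to under 2000 bp with 1 protein coding TSS, the position 500 bp upstream was covered at 44.4% of promoters without HA and 54.7% of those with HA in the ProMMP2-3xHA cells. In the WT cells it was covered at 59.7% and 73.3%. At 1500 bp downstream the order was the opposite, with 30.7% and 22.1% in the ProMMP2-3xHA cells and 45.7% and 37.1% in the WT cells. This order was therefore the same in both lines. In the ProMMP2-3xHA cells the widths are alike here, so cover gained downstream is lost upstream. The opposite orders are thus not separate observations.

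**Figure D2:**
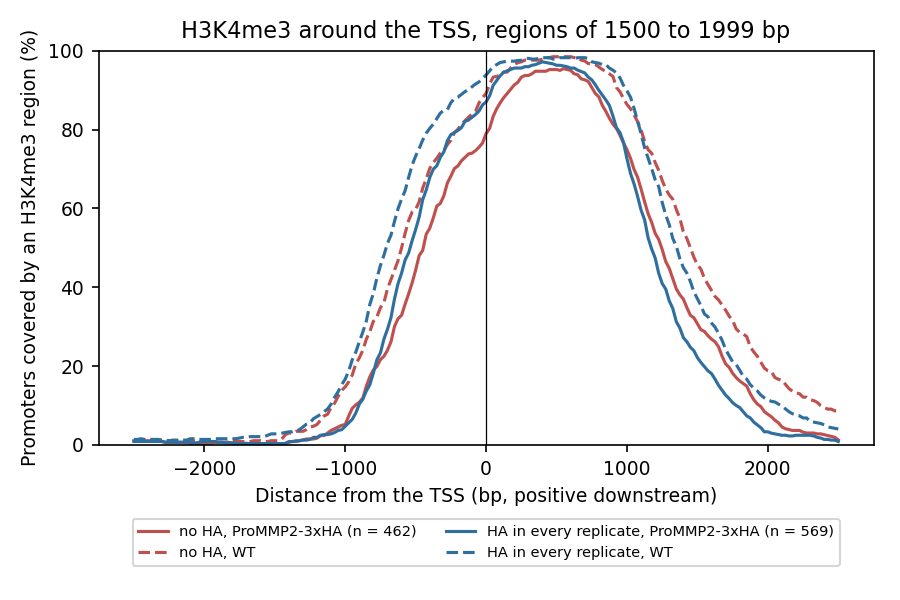
Share of promoters covered by an H3K4me3 region (%) against distance from the TSS in bp, for regions of 1500 to under 2000 bp with 1 TSS. Red lines are the 462 promoters without HA and blue lines the 569 with HA in every replicate, solid in the ProMMP2-3xHA cells and dashed in the WT cells. Upstream at 500 bp the red lines run below the blue (44.4% against 54.7% in the ProMMP2-3xHA cells), and downstream at 1500 bp above them (30.7% against 22.1%).

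Neighbouring transcription units were similar. TSSs on both strands were found at 14.6% of promoters without HA and 14.5% of those with HA at equal width, and the replicates gave differences of 0.664, 1.46 and -0.122 percentage points (mean 0.668 ± 0.791, SD, n = 3, exact sign permutation p = 0.5, adjusted 0.583). Without weighting by width the mean difference was -1.15 points. A TSS of a long noncoding RNA lay within 1 kb at 25.1% of promoters without HA and 27.3% of those with HA at equal width.

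Genes of promoters without HA had the higher median length. Unweighted, their median length was 48466 bp (quartiles 19496 and 115024 bp), against 36949 bp where HA was in part of the lists and 30465 bp (11540 and 66443 bp) where it was in every replicate. Genes without a peak were longer than genes with one by 10278, 10950 and 14552 bp in replicates 1, 2 and 3, a mean of 11927 ± 2298 bp (SD, n = 3, exact sign permutation p = 0.25, adjusted 0.35). The difference kept its sign under all 13 alternatives tried, between 9695 and 13269 bp. The share of promoters without HA was 22.4% for genes under 10 kb, 25.7% from 10 to 30 kb, 29.0% from 30 to 100 kb and 38.8% from 100 kb.

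Median gene length was lower with each additional replicate that found HA. It was 47909 bp with no replicate, 39186 bp with 1, 35139 bp with 2 and 30465 bp with 3. The region width moved with it, from 1482 bp to 1794 bp, but within equal widths the gene lengths of promoters without HA and with HA in every replicate were still 48466 and 30144 bp. Examples of long genes without HA were SYT1, of the synaptic vesicle calcium sensor, at 588016 bp, PRDM16, a zinc finger regulator, at 369454 bp, and RUNX2 at 336193 bp.

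**Figure D3:**
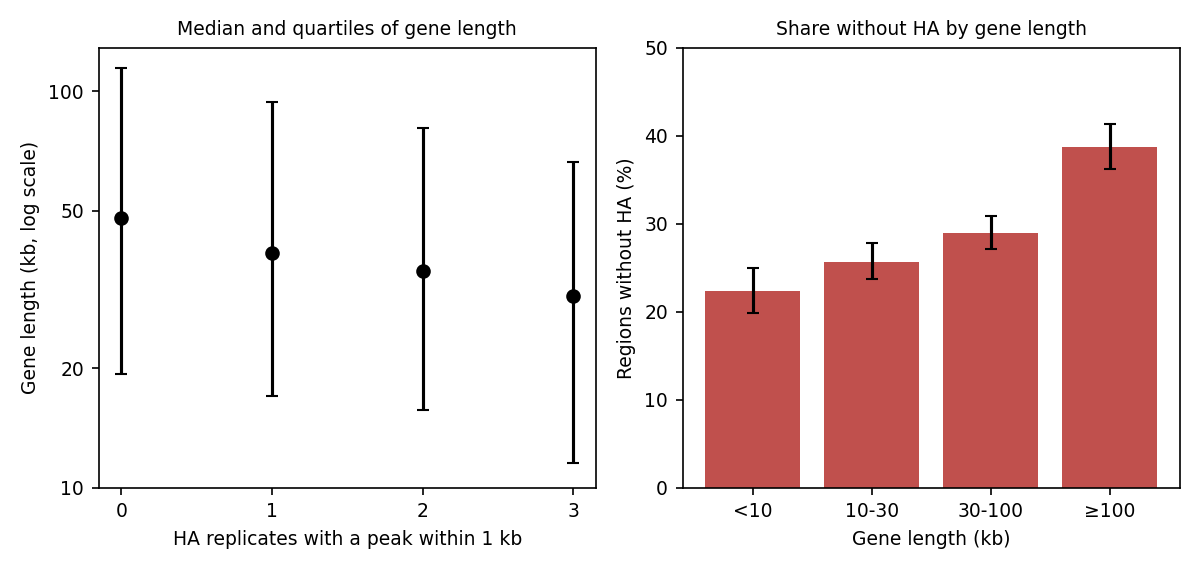
Left, median and quartiles of gene length in kb on a log axis, by the number of HA replicates with a peak within 1 kb. The median is 47909 bp with none and 30465 bp with 3. Right, share of shared promoters without HA (%) by gene length in kb, with 95% exact intervals, from 22.4% under 10 kb to 38.8% from 100 kb.

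Gene families differed in how many of their promoters lacked HA. Families of core cell functions (ribosome, proteasome, chaperones and others) had 91 of 436 promoters without HA (20.9%, 95% exact interval 17.2 to 24.99), those of signalling, matrix and membrane proteins 116 of 343 (33.8%, 28.8 to 39.1) and those of transcription factors 94 of 295 (31.9%, 26.6 to 37.5), against 29.1% of all shared promoters. With equal weight on each width the shares were 24.6%, 36.3% and 32.4%, against 31.4%. These are counts, and the families were not tested against each other. Families were taken by gene symbol, so that they include associated genes such as RAB3GAP1, PSME3IP1, EIF2AK3, CDK2AP1, CCNB1IP1, ITGB1BP1 and assembly factors of complex I.

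Among the core families, the cytosolic ribosomal proteins had 5 of 69 promoters without HA (7.25%, 95% exact interval 2.39 to 16.1) and 51 with HA in every replicate. The 5 were RPS25 (2444 bp), RPL21 (2300 bp), RPL30 (1967 bp), the intronless copy RPL10L (1562 bp) and RPS7 (1151 bp). HNRNPM was the only one of 17 promoters of SR and hnRNP proteins, which act in splicing, without HA, and H4C12 the only one of 15 histone gene promoters. The chaperones had 7 of 39, among them HSPH1 (2490 bp), DNAJC3 (2011 bp) and HSP90AA1 with WDR20 (1791 bp). For HSP90AA1, the inducible cytosolic HSP90, this region lies at the outermost 5′ end of a gene annotated over 58958 bp. Starts further inside the gene were not judged here, and the nearest HA interval lay 51022 bp away. Respiratory complex I and its assembly factors stood at the other end of this group with 14 of 34 (41.2%, 24.6 to 59.3), and genes with cyclin or CDK symbols had 13 of 38, with CCNA2, the S phase cyclin A, among them at 2020 bp. For mitochondrial ribosomal proteins it was 16 of 62, for genes with EIF symbols 10 of 43, with PSM symbols, mostly of the proteasome, 9 of 37, with RAB symbols 6 of 32, for kinesins 5 of 22, for RNA polymerase subunits 4 of 19 and for tubulins 2 of 14.

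Ion channel subunits lacked HA at 12 of 20 promoters (60.0%, 95% exact interval 36.1 to 80.9), a share above that of all shared promoters. They included the potassium channel genes KCNH3 (1884 bp), KCNMB4 (1775 bp), KCNQ5 (1651 bp) and KCNH5 (1468 bp) and the calcium channel gene CACNG7 (1492 bp). HA lay 639119 bp from KCNQ5 and 27676 bp from KCNH3. Semaphorins, which guide axons and migrating cells, lacked HA at 5 of 7 promoters, namely SEMA5A (2889 bp), SEMA3E (2639 bp), SEMA3D (1854 bp), SEMA7A (1665 bp) and SEMA6A (1646 bp). Ephrins and their receptors lacked it at 5 of 8, with EPHB4 (2374 bp) the widest.

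Laminins, which build basement membranes, lacked HA at 4 of 5 promoters, LAMB1 (2293 bp), LAMB2 (1845 bp), LAMA1 (1403 bp) and LAMA5 (1354 bp). LAMC1, the remaining laminin, had peaks of replicates 2 and 3 at 4.71 and 8.02-fold. Orphan G protein-coupled receptors lacked HA at 7 of 13, genes with integrin symbols at 3 of 8 (ITGA2, ITGA6 and the integrin-like ITGBL1), ADAM proteases at 4 of 11 and collagens at 2 of 10. All 3 cadherin promoters lacked it, with CDH2, or N-cadherin, the widest at 3043 bp, a family named after its values were seen. The 2 largest families of this group, solute carriers with 35 of 119 (29.4%) and numbered transmembrane proteins with 29 of 105 (27.6%), stood near the share of all shared promoters, and for most small families the interval contained it too.

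Among transcription factors, forkhead genes lacked HA at 10 of 18 promoters (55.6%, 95% exact interval 30.8 to 78.5). The widest were FOXO1 (3224 bp), a target of insulin signalling, FOXF2 (3065 bp), FOXC1 (2992 bp), FOXD1 (2850 bp) and FOXP4 (2699 bp). FOXC1 measured 5708 bp in the WT cells, and its nearest HA interval was 496297 bp away. Krüppel-like factors lacked HA at 4 of 5 promoters, KLF9 (3263 bp), KLF16 (1624 bp), KLF2 (1619 bp) and KLF13 (1047 bp). HOX genes lacked it at 6 of 18 and zinc finger genes at 64 of 215 (29.8%). None of the 4 AP-1 promoters was without HA. FOS, JUNB, JUND and FOSL1 had a peak in every replicate, from 4.56-fold at FOSL1 to 12.1-fold at JUNB. They too were singled out after their values were seen. Other small families also had no promoter without HA, namely TGF-beta ligands and receptors (0 of 4) and the IRF, MEF2 and TEAD factors (0 of 3 each).

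**Figure D4:**
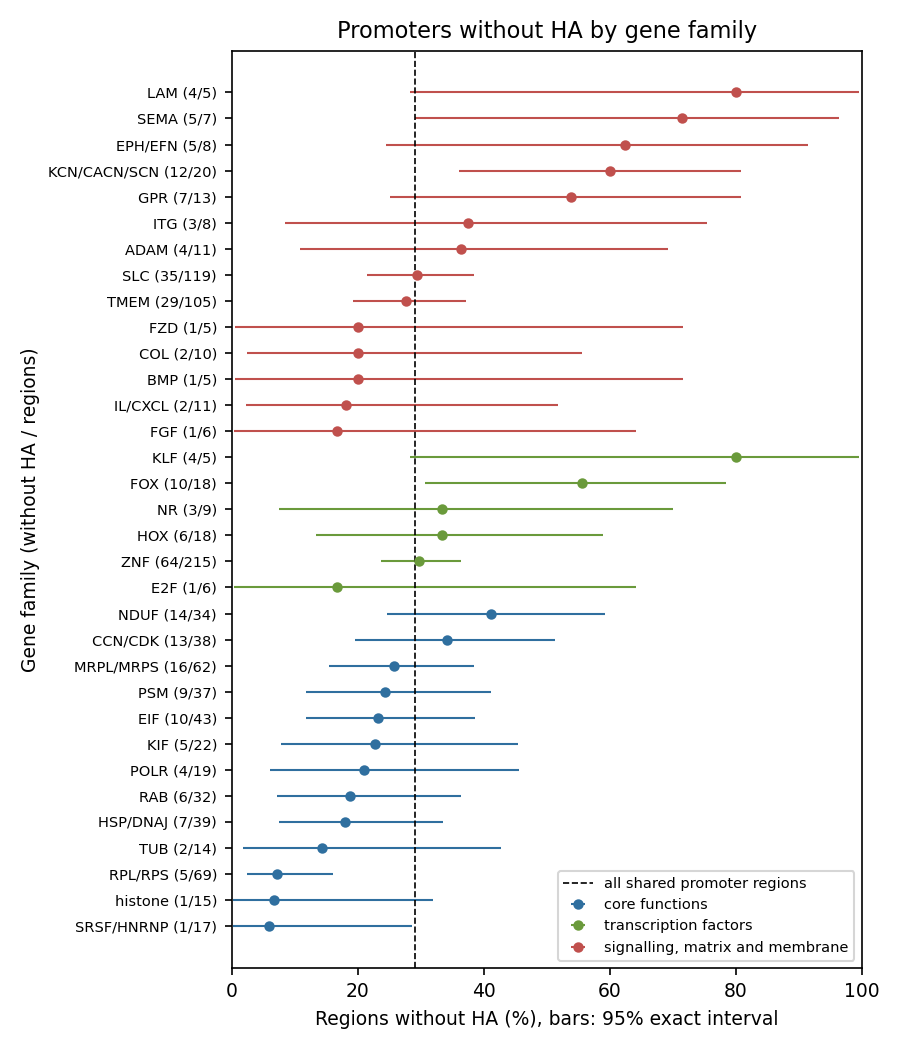
Share of promoters without HA (%) for each gene family with at least 5 shared promoters, with 95% exact intervals and the counts beside each name. Blue marks core functions, red signalling, matrix and membrane families, green transcription factors, and the dashed line the 29.1% of all shared promoters. Cytosolic ribosomal (7.25%) and SR and hnRNP proteins (5.88%) lie below the line and ion channel subunits (60.0%) and forkhead factors (55.6%) above it, with intervals that do not reach it.

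The chromosomes differed as well. Promoters without HA made up 103 of 166 shared promoters on chromosome X (62.0%, 95% exact interval 54.2 to 69.5) and 63 of 119 on chromosome 13 (52.9%, 43.6 to 62.2). Chromosome 19 followed with 34.2%, and the lowest shares were 16.7% on chromosome 21, 17.5% on 22, 19.5% on 8 and 20.7% on 2. Among the named promoters, FTSJ1 lies on chromosome X, and FOXO1, RPL21, HSPH1, DNAJC3, ITGBL1 and MBNL2 on chromosome 13.

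As far as recovered from the peak lists, the background of the control library at HA summits tended to be lower with a higher share. Its median was 1.33, 1.55 and 1.41 fragments per base in replicates 1, 2 and 3 on chromosome X, the commonest value of each list, and 1.47, 1.69 and 1.77 on chromosome 13. On chromosome 14 it was 2.66, 3.00 and 2.82, with 25.1% of promoters without HA. Not every chromosome followed this order. Chromosome 19, with 34.2% without HA, had a background of 1.41, 1.69 and 1.56. Chromosome 21, with the lowest share of 16.7%, had 1.93, 2.16 and 2.05. Across the 23 chromosomes the rank correlation of the share without HA with this background was -0.62, -0.60 and -0.75 in the 3 replicates, and -0.50, -0.48 and -0.68 without X and 13. These are descriptions over chromosomes that share the same libraries, and the number of copies of each chromosome, which sets how much DNA an immunoprecipitation can recover, was not measured.

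Within 1 Mb, too, the share without HA was 38.2% where the control background was under 1.1 times its commonest value, 27.4% from 1.1 to 1.3, 23.04% from 1.3 to 1.5, 19.2% from 1.5 to 1.8 and 19.7% above. At 564 regions with fewer than 5 HA summits within 1 Mb it could not be read. Of these, 52.0% had no HA. They were set apart by the scarcity of HA around them, so this share cannot be set beside the others. The part of this background in the other results was not tested, but values at a more even background can be given. At 1.1 to 1.5 times the commonest value, promoters without HA were 18.2% for genes under 10 kb and 32.6% for genes from 100 kb, and genes without a peak were longer by 9695 bp. Away from chromosomes X and 13, core families lacked HA at 18.8% of promoters, membrane families at 33.2% and transcription factors at 30.8%. These comparisons were chosen after the data were seen. The next shared promoter along the chromosome lacked HA after 33.6% of promoters without HA and after 23.6% of those with HA in every replicate, against 29.1% of all shared promoters, and this was not tested.

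**Figure D5:**
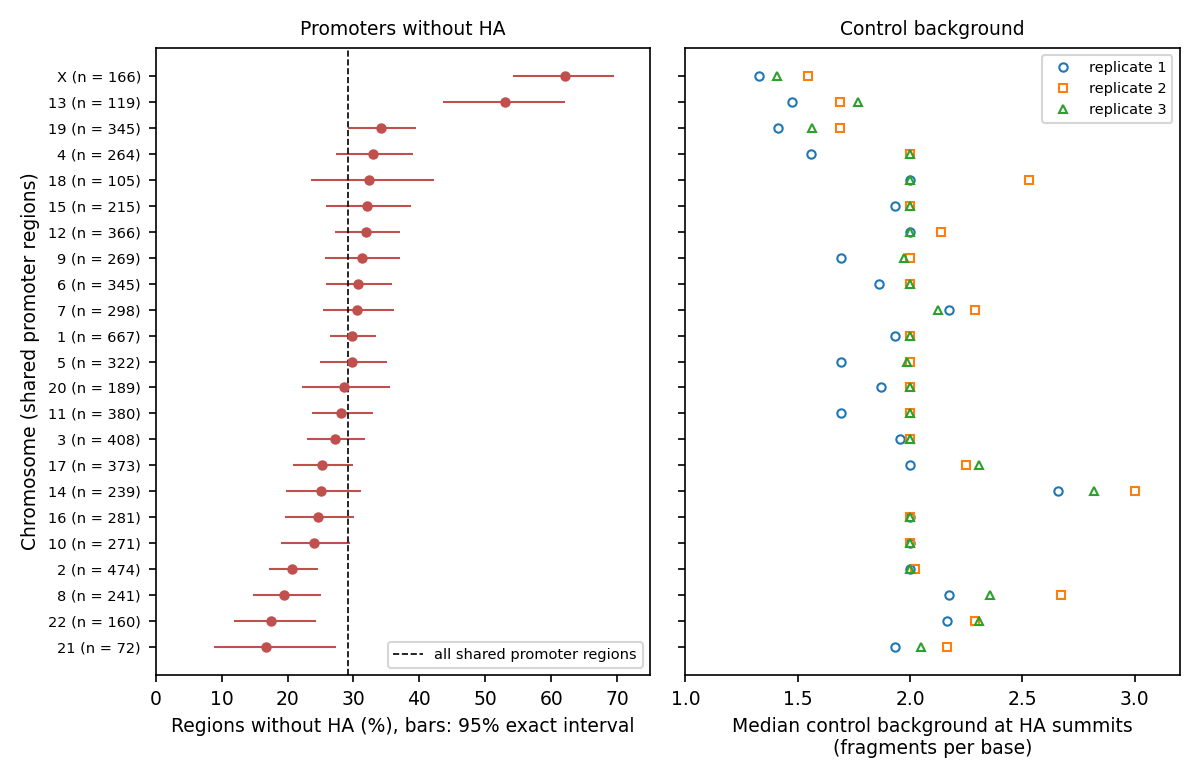
Left, share of shared promoters without HA (%) by chromosome with 95% exact intervals and the dashed line at 29.1%, in order of the share. Right, median control background at HA summits in fragments per base, for replicates 1 (circles), 2 (squares) and 3 (triangles). Chromosomes X and 13, with 62.0% and 52.9%, lie among the lowest backgrounds.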

How the data were processed

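HA nChIP-Seq peak lists of 3 replicates, a merged HA list and 1 H3K4me3 list per cell line were used. Per the study's methods, the authors trimmed reads with Trim Galore 0.6.0, aligned them to hg19 (GRCh37) with Bowtie2 2.3.5.1, filtered them with SAMtools 1.9 at a mapping quality of 30, removed duplicates with Picard, and called peaks with MACS2 3.0.0a6 at a q-value of 0.05 against an input or control immunoprecipitation. The deposited replicate lists give the coordinates (which carry no unit of signal), the fold enrichment at the summit as a ratio, and its −log10 p- and q-values, which served here only to describe or filter peaks. Their score column, as deposited 10 times the −log10 q-value, was not used. The deposited merged HA and H3K4me3 lists combine narrow and broad calls and hold no values, so the depth behind H3K4me3 is unknown.

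TSSs were the 5′ ends of 20163 protein coding genes of GENCODE 44 lifted to GRCh37, whose build matches the lists. Each gene thus had 1 TSS, its outermost 5′ end. A gene named as without HA may have HA at a start further inside it. Distances count touching intervals as 1 bp, and were checked against bedtools 2.31.1. Where a region had several TSSs, its gene was the one nearest to the centre. Class values given at equal width, and the differences by replicate other than the left-out share, were weighted to the widths of the promoters without HA in 5 strata of 500 bp. Differences between promoters without and with a peak, 1 per replicate, were tested by exact two-sided sign permutation over 3 replicates, with 7 results adjusted together by Benjamini-Hochberg. Sequence, H3K4me3 and gene values were the same in each replicate, and only the HA calls differed. Each difference of the left-out share used all 3 replicates. The SD and p thus describe agreement of the HA peak lists. The 95% exact intervals of shares (Clopper-Pearson) reflect counting error alone and treat neighbouring regions as independent. Python 3.11.15, numpy 2.4.6 and scipy 1.17.1 were used, and the code was tested on simulated data.

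MACS2 derives fold and p from 1 pileup, so HA fragments and control background were recovered from their values for 100%, 100% and 99.9% of summits of replicates 1, 2 and 3. A median of 49, 44 and 41 HA fragments lay at the summits, at an HA to control depth ratio of 3.57, 2.81 and 3.00. Background exists only where a peak was called.

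The promoters, families, markers and motifs were chosen with earlier results of these data known. Genes named were the 10 widest promoters without HA, the 5 highest and lowest in WT width ratio and in CpG ratio, the 5 nearest each side of the 1 kb limit, up to 6 by width in families with at least 5 shared promoters (not all are printed), the cell type markers and the 5 widest comparison regions. Gene length bins, the whole-region GC content, the upstream extent, chromosomes and control background were added after the data were seen. Alternatives changed the HA window, the q-value, the lists, the TSS set, the WT overlap, the widths, the weighting, the chromosomes and the replicates.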

Additional observations from a re-analysis of the deposited data

How the results depend on the processing

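The number of promoters without HA stayed within 1.5 times the reported value under all 17 alternatives, from 1565 (widths of 1000 to under 2000 bp only) to 2798 (merged HA list only), and was 2031 to 2530 when a replicate was left out. The deficit in the left-out replicate stayed between -37.3 and -29.0 percentage points, and the gene length difference between 9695 and 13269 bp. The small differences did not hold their sign. Without weighting by width, the log2 width ratio difference was 0.018, the downstream extent difference -80.3 bp and the divergent share difference -1.15 points, and the GC difference was 0. The CpG ratio difference was 0.0012 over 1000 bp at the TSS and 0.0044 over the whole region. Without replicate 3 the GC difference was -0.10 points, and leaving out replicates 1 or 2 gave 0.10 and 0.20. Over 100 bp before to 50 bp after the TSS, 2 motifs rather than 1 had intervals that did not overlap. With the merged HA list only, the share without HA was 33.0% in core, 47.8% in membrane and 45.8% in transcription factor families, higher in each because fewer HA intervals were counted. The causes of the changes of sign were not tested. No paired analysis was possible because the groups share only replicate number 1. The differences by replicate compare promoters within each HA replicate and pair no samples of different groups. With 3 replicates the sign permutation test cannot fall below 0.25, and HA too weak to be called as a peak is not seen.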
